A study of Sus scrofa with 57 samples.

Results

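The 6 genes described here are PPARGC1A, PPARGC1B, PRDM16, EBF2, UCP2 and UCP3, which encode regulators of thermogenesis in fat and 2 of the mitochondrial uncoupling proteins. They were found by symbol among 25285 gene identifiers of the RNAseq tables, and every differentially methylated region that the tables list in these genes or within 100000 bases of their loci was taken with them. PPARGC1A stands in the tables under the name PPARGC1 and was matched through its identifier. EBF2 has 2 entries, so that the 6 genes have 7 entries in all. The regions were 25 of the 7401 from methylated DNA capture (mDNAcap), 21 of the 2416 from reduced representation bisulfite sequencing (RRBS) that rest on at least 3 pigs of each group, and 4 of the 610 that rest on at least 5. No entry carries the name UCP1.

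Mature adipocytes, the fat cells that float after collagenase digestion, came from the retroperitoneal fat of lean and obese pigs of a cross between Duroc and Göttingen minipigs. They were bred as an F2 intercross, and the labels give no age and no treatment. For RNAseq there were 11 libraries, 1 from each of 5 lean and 4 obese males and 2 from pig-572, a further obese male. DNA for both methylation assays was taken from the same 23 pigs, of which 8 of 11 lean and 8 of 12 obese ones were males. These numbers count pig-411 as lean, against its label, which says obese, because the header of the mDNAcap comparison lists it with the lean files, and its group in the RRBS means was not tested. That comparison holds 11 values per group without the names of the pigs, so it could not be repeated without pig-411.

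PGC-1alpha and PGC-1beta, the products of PPARGC1A and PPARGC1B, are coactivators that bind nuclear receptors and raise the transcription of mitochondrial genes, and PGC-1alpha is the one that cold and adrenergic signals induce in brown fat. PRDM16 and EBF2 are transcription factors that give adipocyte precursors a brown fate. UCP1 carries protons across the inner mitochondrial membrane and makes heat in brown fat, whereas UCP2, which is abundant in immune cells, and UCP3, known from skeletal muscle and brown fat, are relatives with roles in metabolite transport and fatty acid handling. Pigs lack a working UCP1 gene.

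The adipocyte list was the highest of the cell type lists, followed by that of fibroblasts and preadipocytes. The 6 adipocyte markers matched by name summed to between 1100 and 1740 FPKM per pig, and the 9 entries of the skeletal muscle list, all under 1 FPKM in every pig, summed to between 0.523 and 1.15. MYOD1, the master regulator of the muscle lineage, was listed at 0 in every pig. The macrophage and leukocyte list of 10 entries summed to between 3.68 and 7.57 FPKM with CD163 at 0, and the endothelial list of 6 to between 1.48 and 13.3. The fibroblast and preadipocyte list of 12 entries summed to 226 to 695 FPKM in lean and 250 to 620 FPKM in obese pigs. That sum was mostly COL3A1, a collagen gene, with means of 419 FPKM in lean and 372 FPKM in obese pigs. Both DLK1 entries of the list were at 0 in every pig, and PDGFRA was at most 1.65 FPKM. The smooth muscle and mural list of 6 summed to 4.59 to 12.7 FPKM over all pigs. Between 8950 and 10291 genes reached 1 FPKM in a library, with the lowest number in the second of pig-572. FPKM counts fragments relative to transcript length and to the mapped fragments of the library and is thus a level per length, and the values below are FPKM divided by a size factor for each library. In such bulk samples, fewer cells of a type and less RNA per cell cannot be told apart.

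UCP3 was by far the most abundant of the 6 genes, with a mean level above that of 82.7% of the 10246 genes tested. Its level was 16.0, 39.5, 34.0, 10.998 and 21.4 FPKM in lean pig-402, pig-407, pig-413, pig-525 and pig-577. In obese pig-433, pig-473, pig-524, pig-529 and pig-572 it was 18.2, 16.3, 30.5, 23.8 and 20.1 FPKM. The lean pigs spanned the whole range, with pig-407 and pig-413 above every obese pig and pig-525 and pig-402 below every obese pig. The means were 24.4 ± 12.0 FPKM in lean and 21.8 ± 5.61 FPKM in obese pigs (SD, n = 5 each). On the scale of log2(FPKM + 1), obese pigs differed from lean ones by -0.05 with an SE of 0.32 (limma, adjusted p = 0.944, exact permutation p = 0.873). The sign of this difference turned in 4 of 18 alternative settings, which were the fits without lean pig-407, lean pig-413, obese pig-433 or obese pig-473, and its range was -0.284 to 0.155. The bounds that cufflinks gives to each value correspond to 2559 to 8005 fragments per library, and the libraries of pig-572 gave 19.9 and 20.3 FPKM.

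UCP2, whose locus lies 11699 bases from that of UCP3 on chromosome 9, was low and varied widely between pigs. Its level in lean pig-402, pig-407, pig-413, pig-525 and pig-577 was 0.219, 0.573, 0.0218, 0.715 and 0.197 FPKM. In obese pig-433, pig-473, pig-524, pig-529 and pig-572 it was 0.869, 0.727, 0.108, 0.0926 and 0.394 FPKM. Both groups held high and low pigs and overlapped over nearly the whole range, and the highest pig was 39.9-fold above the lowest. The means were 0.345 ± 0.288 FPKM in lean and 0.438 ± 0.353 FPKM in obese pigs (SD, n = 5 each), a difference of 0.09 on the log2(FPKM + 1) scale with an SE of 0.19 (limma without the filter on low values, adjusted p = 0.851, exact permutation p = 0.698). The value in pig-413 rests on about 2 fragments and that in pig-433 on about 76, and pig-413 is the one library in which the lower bound of cufflinks is 0. The level of UCP3 was 15.4 times that of UCP2 in pig-525 and 1560 times in pig-413, with a median of 71.0 over the 10 pigs.

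The level of UCP2 went with that of markers of other cell types. Pig-407, pig-433, pig-473 and pig-525, the 4 with the highest UCP2, had summed levels of 7.74 to 13.3 FPKM on the endothelial list, and pig-413, the lowest, had 1.48. Pig-402, with 7.93 FPKM on that list, had a low UCP2. The highest mean on the endothelial list was that of PECAM1, at 5.17 FPKM in lean and 4.99 FPKM in obese pigs. On the smooth muscle and mural list it was TAGLN, at 6.36 and 8.45 FPKM, and on the macrophage and leukocyte list CD14, at 2.03 and 1.73 FPKM. The sums weigh these genes most. Over the 10 pigs Pearson's r of UCP2 with the summed list was 0.767 for endothelial cells, 0.801 for macrophages and leukocytes and 0.805 for smooth muscle and mural cells. They were the 3 highest of the 8 lists for UCP2 among 56 such correlations computed, all values share their libraries, and the part of these cells in the level of UCP2 was not tested.

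**Figure D1:**
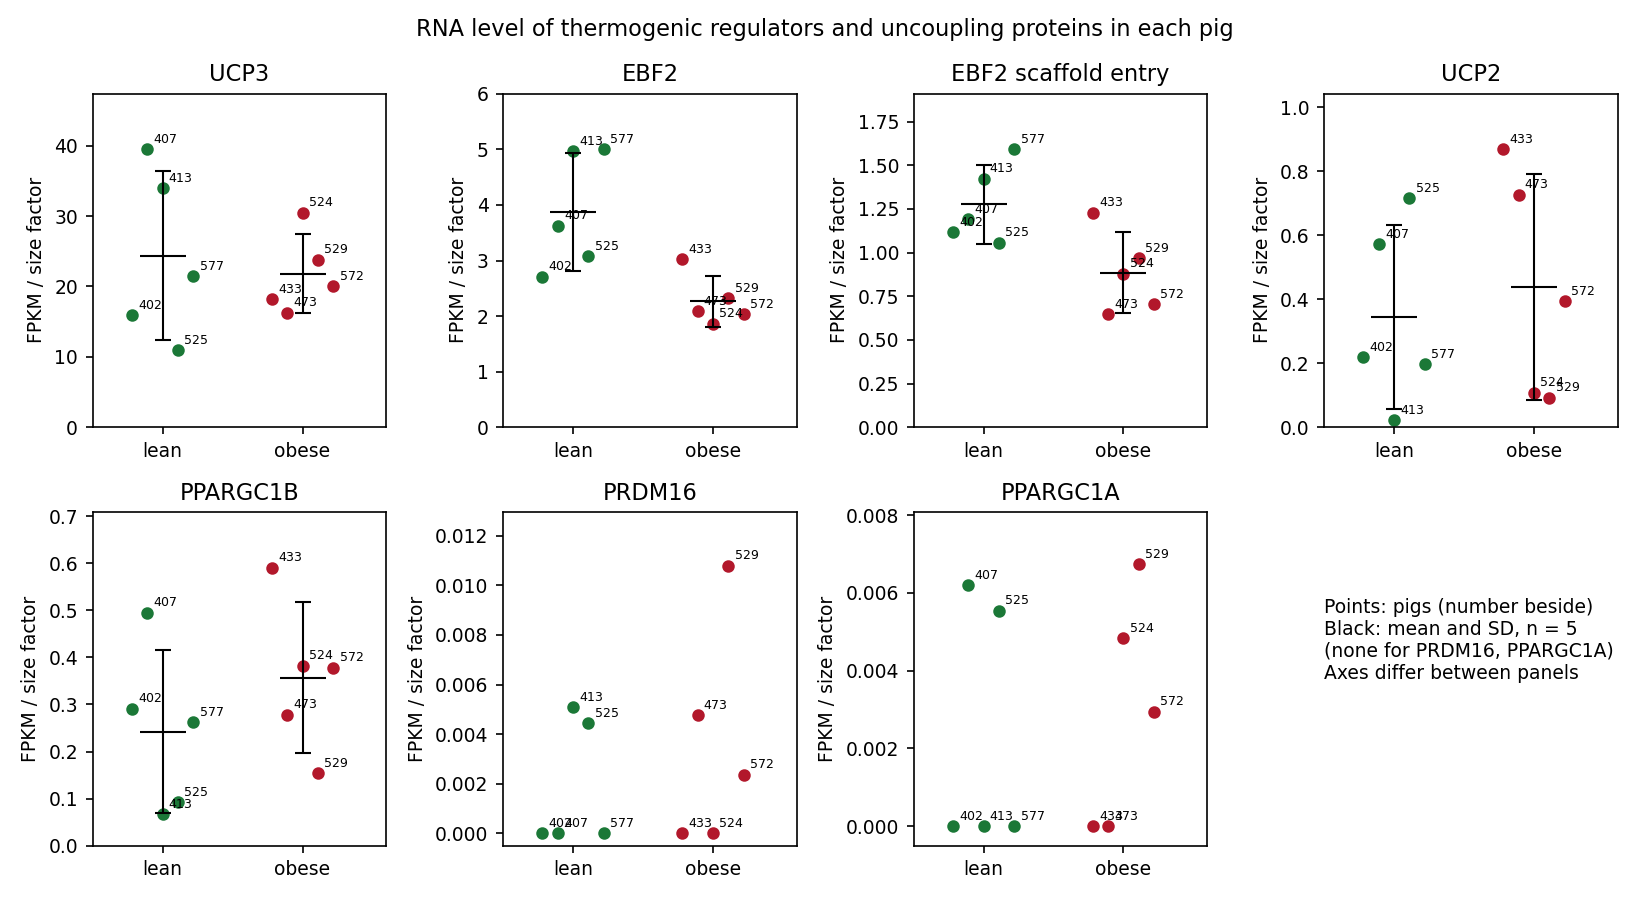
RNA level (FPKM divided by the size factor) of each entry in each pig, lean in green and obese in red, with the pig's number beside its point and black bars for mean and SD of 5 pigs, which PRDM16 and PPARGC1A lack. The axes differ between panels, the highest pig is at 39.5 for UCP3 and at 0.0108 for PRDM16, and EBF2 is the gene with the least overlap between the groups.

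EBF2 had the lowest p of the 6 genes, with lower levels in obese pigs, although it did not pass the threshold after adjustment. The level of its entry on chromosome 14 was 2.71, 3.63, 4.96, 3.08 and 5.01 FPKM in lean pig-402, pig-407, pig-413, pig-525 and pig-577. In obese pig-433, pig-473, pig-524, pig-529 and pig-572 it was 3.03, 2.09, 1.86, 2.32 and 2.03 FPKM. Of the obese pigs 4 were below every lean pig, and pig-433 alone was above the lowest lean pig, pig-402. The means were 3.88 ± 1.06 FPKM in lean and 2.27 ± 0.457 FPKM in obese pigs (SD, n = 5 each). The difference was -0.56 on the log2(FPKM + 1) scale with an SE of 0.15 (limma, unadjusted p = 0.00427, adjusted p = 0.131, exact permutation p = 0.0159). It was negative in all 18 alternative settings, with adjusted p between 0.0564 and 0.279 in limma.

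The other entry of EBF2 is a short stretch of 4552 bases on an unplaced scaffold. In lean pigs it was at 1.12, 1.19, 1.42, 1.06 and 1.59 FPKM, in the same order of pigs, and in obese pigs at 1.23, 0.646, 0.879, 0.967 and 0.703 FPKM. Here too 4 obese pigs were below every lean pig and pig-433 was the exception. The difference was -0.28 with an SE of 0.11 (limma, unadjusted p = 0.0317, adjusted p = 0.206, exact permutation p = 0.0397). The entries had a Pearson's r of 0.913 over the 10 pigs, and they carry 1 gene name, so that they are not independent evidence. Of the 3 entries tested across all genes, none passed an adjusted p of 0.05, where 0.00976% of all genes did. At an unadjusted p under 0.05 both EBF2 entries were lower, where 10.3% of all genes were lower and 20.8% differed in either direction.

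The level of EBF2 went in part with that of immediate early and stress genes, a list of 11 entries that includes FOS, JUN and EGR1 and that tissue digestion is known to induce. The summed list reached 1720 FPKM in pig-577 and 1560 FPKM in pig-413, the lean pigs with the highest EBF2. Among the obese pigs it reached 1210 FPKM in pig-433, the obese pig with the highest EBF2, and at most 1110 FPKM in the others. Other pigs departed from this order. Lean pig-407 had 597 FPKM on the list and an EBF2 level of 3.63 FPKM, above every obese pig, whereas lean pig-525 had 1280 FPKM on the list and 3.08 FPKM of EBF2. Obese pig-473, with 1110 FPKM on the list, had 2.09 FPKM of EBF2, less than the 2.32 FPKM of pig-529 with 668 FPKM on the list. Pearson's r over the 10 pigs was 0.722, and 0.627 for the scaffold entry of EBF2. The former was the highest of the 8 lists for EBF2 among the 56 such correlations. Of 10 tested entries of this list, 5 were lower and 2, both HSPB1, higher in obese pigs (unadjusted limma p under 0.05). Of all genes tested, 10.3% were lower and 10.5% higher at that limit, or 20.8% in either direction. The list thus held a larger share of such entries than all genes did. The part of this list's response in the level of EBF2 was not tested.

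**Figure D2:**
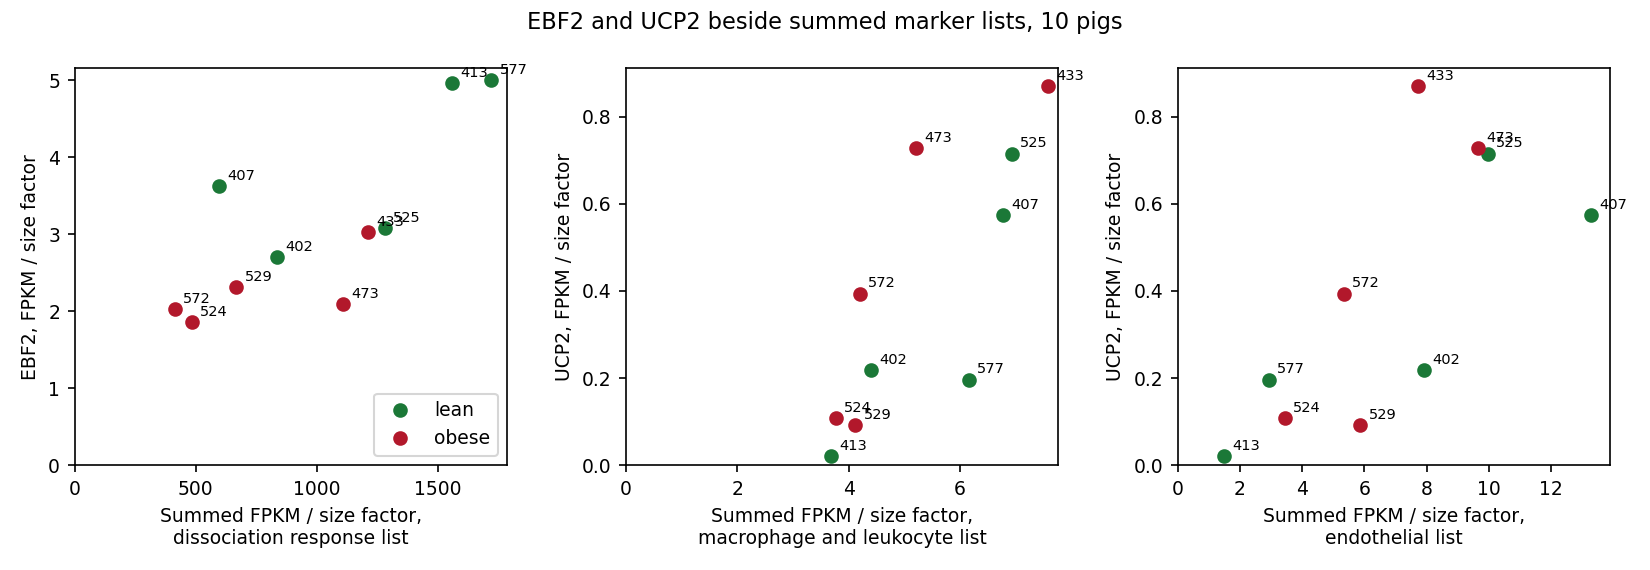
Level of EBF2 beside the summed dissociation response list (left) and of UCP2 beside the summed macrophage and leukocyte list (middle) and endothelial list (right), all as FPKM divided by the size factor, 1 point per pig. Pig-413 and pig-577 are highest on both axes of the left panel, and pig-413 is lowest on both axes of the middle and right panels.

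PPARGC1B was detected in every library at a low level. It was at 0.291, 0.495, 0.0669, 0.0926 and 0.262 FPKM in lean pig-402, pig-407, pig-413, pig-525 and pig-577. In obese pig-433, pig-473, pig-524, pig-529 and pig-572 it was at 0.591, 0.279, 0.382, 0.155 and 0.378 FPKM. The 2 lowest pigs were lean and the highest was obese, but the groups overlapped over most of their range. The means were 0.242 ± 0.173 FPKM in lean and 0.357 ± 0.160 FPKM in obese pigs (SD, n = 5 each), a difference of 0.13 on the log2(FPKM + 1) scale with an SE of 0.11 (limma without the filter on low values, adjusted p = 0.602, exact permutation p = 0.317). With a pseudocount of 0.1 the difference was 0.50. Its bounds correspond to about 10 fragments in pig-413 and 95 in pig-433. Its Pearson's r with the 5 mesothelial markers, which summed to 0.233 to 1.19 FPKM, was 0.813 over the 10 pigs. This was the highest of the 8 lists for PPARGC1B among the 56 such correlations. The sum was mostly WT1, with means of 0.275 FPKM in lean and 0.509 FPKM in obese pigs. MSLN, UPK3B, LRRN4 and KRT19 were at most 0.142 FPKM in any pig. The part of such cells in the level of PPARGC1B was not tested.

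PPARGC1A and PRDM16 were at the floor of detection in both groups. PPARGC1A was listed at 0 in lean pig-402, pig-413 and pig-577, in obese pig-433 and pig-473 and in the second library of pig-572. In the remaining libraries, those of lean pig-407 and pig-525 and of obese pig-524 and pig-529 and the first of pig-572, the deposited FPKM was 0.00583, 0.00661, 0.00593, 0.00694 and 0.00598. By their bounds these values are 1 fragment each. A count of 3 fragments, the limit that a count of 0 allows, would be an FPKM of 0.0175 to 0.0208 for this gene in these libraries, as far as counting error goes.

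PRDM16 was listed at 0 in lean pig-402, pig-407 and pig-577, in obese pig-433 and pig-524 and in the second library of pig-572. The deposited FPKM was 0.00522 and 0.00530 in lean pig-413 and pig-525, and 0.00538, 0.0111 and 0.00479 in obese pig-473 and pig-529 and the first library of pig-572. The value in pig-529 stands for about 2 fragments and each of the others for 1. A difference between the groups was therefore not detectable at this depth for either gene, and no ratio is given.

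In order of mean level the entries were UCP3, both entries of EBF2, UCP2, PPARGC1B, PRDM16 and PPARGC1A. The mean of UCP3 was 7.51 times that of EBF2, and UCP3 was the higher of the pair in 10 of 10 pigs (exact sign-flip permutation test over pigs, adjusted p over the 6 neighbouring pairs = 0.00391). PPARGC1B was higher than PRDM16 in 10 of 10 pigs (same exact permutation test, adjusted p = 0.00391). UCP2 and PPARGC1B could not be ordered, with UCP2 the higher in 5 of 10 pigs (same exact permutation test, adjusted p = 0.511). PRDM16 and PPARGC1A could not be ordered either (same exact permutation test, adjusted p = 0.984).

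Among genes with a symbol, those whose levels followed EBF2 most closely over the 10 pigs were CTDSP2, a phosphatase of RNA polymerase II, with a Pearson's r of 0.978, CLK2, a kinase of splicing factors, with 0.972, and SOX6, a transcription factor of muscle and cartilage, with 0.971. Those nearest the scaffold entry were ADNP2, PSME1 and TINF2, with r of 0.945, 0.93 and 0.929. Those nearest UCP3 were KPNA6, an importin, with 0.946, P2RX4, an ATP-gated channel, with 0.936, and CYB5RL with 0.924. These are the highest values over 10 pigs among those of the 10246 genes tested that carry a symbol, and are given as a description.

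The genes around these 6 gave no list with a member past the threshold. Of 24 tested entries of the PGC-1 partners and mitochondrial biogenesis list, 0 passed an adjusted limma p of 0.05 and 3 had an unadjusted p under 0.05. The latter were PRKAA2, a catalytic subunit of AMPK, and POLG, the polymerase of mitochondrial DNA, at 0.48 and 0.45 on the log2 scale, and CREB1, which binds the PPARGC1A promoter in the cAMP response, at -0.20. The median over the list was 0.018, beside -0.002 over all genes tested. Of 24 tested entries of the PRDM16 and EBF2 partners, 0 passed and 5 had an unadjusted p under 0.05. CEBPA and KLF15, transcription factors of adipocytes, were at 0.65 and 0.44, and 1 entry of MED13, a subunit of Mediator, at -0.24.

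Among 20 tested repressors of thermogenic genes 0 passed and 2 had an unadjusted limma p under 0.05, both with higher levels in obese pigs. NR1H2, the liver X receptor beta, was at 8.50 ± 1.04 FPKM in lean and 11.2 ± 0.319 FPKM in obese pigs (SD, n = 5 each) without overlap, where 2.33% of all genes tested were higher without overlap and 4.14% were without overlap in either direction, and the difference was 0.37 (limma, adjusted p = 0.111).

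Of the 28 matched entries of the brown and beige marker list 18 were under the filter of a mean FPKM of 1. Of the 10 tested, 0 passed and 2 had an unadjusted limma p under 0.05. These were PDK4, a kinase that shuts pyruvate dehydrogenase, at 301 ± 215 FPKM in lean and 72.7 ± 54.6 FPKM in obese pigs, and GK, the glycerol kinase, at 14.5 ± 5.91 and 8.45 ± 1.62 FPKM (SD, n = 5 each). GK was the only one of 13 tested entries of the UCP1-independent cycles with an unadjusted p under 0.05. Among 15 tested carriers related to the uncoupling proteins it was SLC25A6, an ADP/ATP carrier with 2 entries, at 47.4 ± 5.68 FPKM in lean and 35.1 ± 4.91 FPKM in obese pigs (SD, n = 5 each). This entry bears the symbol SLC25A5 in the reference list of names. The other SLC25A6 entry was at 80.7 ± 21.1 FPKM in lean and 72.0 ± 9.07 FPKM in obese pigs. Its difference was -0.13 on the log2 scale (limma, unadjusted p = 0.514).

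Of 14 tested entries of the adrenergic and cAMP list, 0 passed and 4 had an unadjusted limma p under 0.05. The beta-1 receptor ADRB1 and the kinase subunit PRKACB were at -0.62 and -0.27 on the log2 scale, and the adenylyl cyclases ADCY6 and ADCY9 at 0.42 and 0.39. Of 23 tested entries of fatty acid oxidation, 0 passed, 10 had a positive and 13 a negative difference, and the median was -0.08. The 4 with an unadjusted p under 0.05 were all lower in obese pigs and were PDK4 and 3 enzymes of mitochondrial beta-oxidation. ACAA2 was at 84.2 ± 19.7 FPKM in lean and 50.5 ± 6.78 FPKM in obese pigs, HADHA at 57.5 ± 13.7 and 35.2 ± 4.70, and HADHB at 56.4 ± 9.91 and 38.6 ± 5.62 (SD, n = 5 each), each without overlap, where 1.81% of all genes tested were lower without overlap, and with adjusted limma p of 0.107 to 0.133. The share of entries with an unadjusted p under 0.05 was 6.67% to 28.6% over the 8 lists, around the 20.8% of all genes tested.

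In mDNAcap, DNA fragments with methylated CpGs are captured and counted, so that a higher normalized read count means more methylated DNA recovered. Within 100000 bases of the 6 genes 22 of the 25 regions, or 88.0%, had a higher mean count in obese pigs, whereas 29.3% of all 7401 regions had. PPARGC1B had 11 regions, PRDM16 had 11, UCP2 and UCP3 shared 2, PPARGC1A had 1 and EBF2 had none. A window with 11 or more regions was found at 81 of 25285 loci, and 60.8% of loci had no region in their window. At 52 of those 81 loci at least 10 of the regions were higher in obese pigs, as at PPARGC1B and PRDM16. All 25 passed an adjusted limma p of 0.05, where 96.2% of all regions did (27.1% higher and 69.0% lower in obese pigs), and nothing is read from it because the authors chose the regions by their difference between these same animals.

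The direction moved with the count. Of the 14 regions near the 6 genes with a mean count of at least 20, all 14 were higher in obese pigs, where 64.8% of all such regions were. Of the 11 with a lower mean count 8 were higher, where 12.8% of all such regions were. When the counts were scaled between animals by the median of ratios, all 25 regions kept their direction and 22 passed the adjusted limma threshold, where 39.6% of all regions did. The 3 that did not were the 3 with lower counts in obese pigs. The same scaling turned the calls over all regions from 2009 higher and 5109 lower into 2125 higher and 807 lower. Before it, 2165 of all regions had a higher mean count in obese pigs. Its factors came from these same regions, so that passing went with the direction and nothing is read from the 22.

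At PPARGC1B, 10 of the 11 regions were higher in obese pigs, by 0.43 to 0.71 on the scale of log2(count + 1). The locus in the tables is chromosome 2, 157708576 to 157732501 in Sscrofa10.2, the build of all coordinates here. Its single region, 157708001 to 157709200, lies across the lower end of the locus, with 8.07, 20.4 and 21.4 normalized counts as the lowest, median and highest of 11 lean values and 14.8, 20.2 and 46.5 for the 11 obese values. The medians were thus alike, and 5 obese values above every lean value set the means apart, at 25.6 ± 9.33 in obese and 17.8 ± 4.88 in lean pigs (SD, n = 11 each).

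Below the locus as listed, all 5 regions were higher in obese pigs. The listed locus spans 23926 bases, and whether the gene reaches further down, into these regions, was not tested. At 157612801 to 157614500, 94076 bases from it, the lowest, median and highest counts were 10.7, 18.4 and 28.1 in lean and 19.8, 27.7 and 47.8 in obese pigs, and all 11 obese values were above the lean median. At 157677301 to 157678300 they were 8.07, 11.3 and 13.6 in lean and 10.6, 17.4 and 32.0 in obese pigs, with 8 obese values above every lean value. The difference was 0.69 with an SE of 0.17 at the first and 0.65 with an SE of 0.18 at the second (limma, adjusted p = 0.00849 each). The remaining 3 below the locus began at 157643101, 157674201 and 157685101, and their obese medians were 17.1, 26.3 and 22.3 against lean medians of 10.98, 19.0 and 15.5.

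On the upper side 4 regions lay in PDE6A, a phosphodiesterase of rod photoreceptors with a mean level of 0.0093 FPKM here, and 1 in HMGXB3, at 1.12 FPKM. The HMGXB3 region, 157820901 to 157823200, had the highest counts of the window, with 32.0, 46.4 and 68.1 in lean and 50.5, 64.5 and 110 in obese pigs as lowest, median and highest. In PDE6A, 157746201 to 157747700 had medians of 19.9 in lean and 33.1 in obese pigs, and all 11 obese values were above the lean median. The exception of the window, 157776901 to 157777900, is also in PDE6A. Its lowest, median and highest counts were 7.90, 24.7 and 36.5 in lean and 8.25, 14.6 and 23.1 in obese pigs, and no obese value reached the lean median. Its difference was -0.56 with an SE of 0.21 (limma, adjusted p = 0.0148, and 0.238 with the median of ratios).

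**Figure D3:**
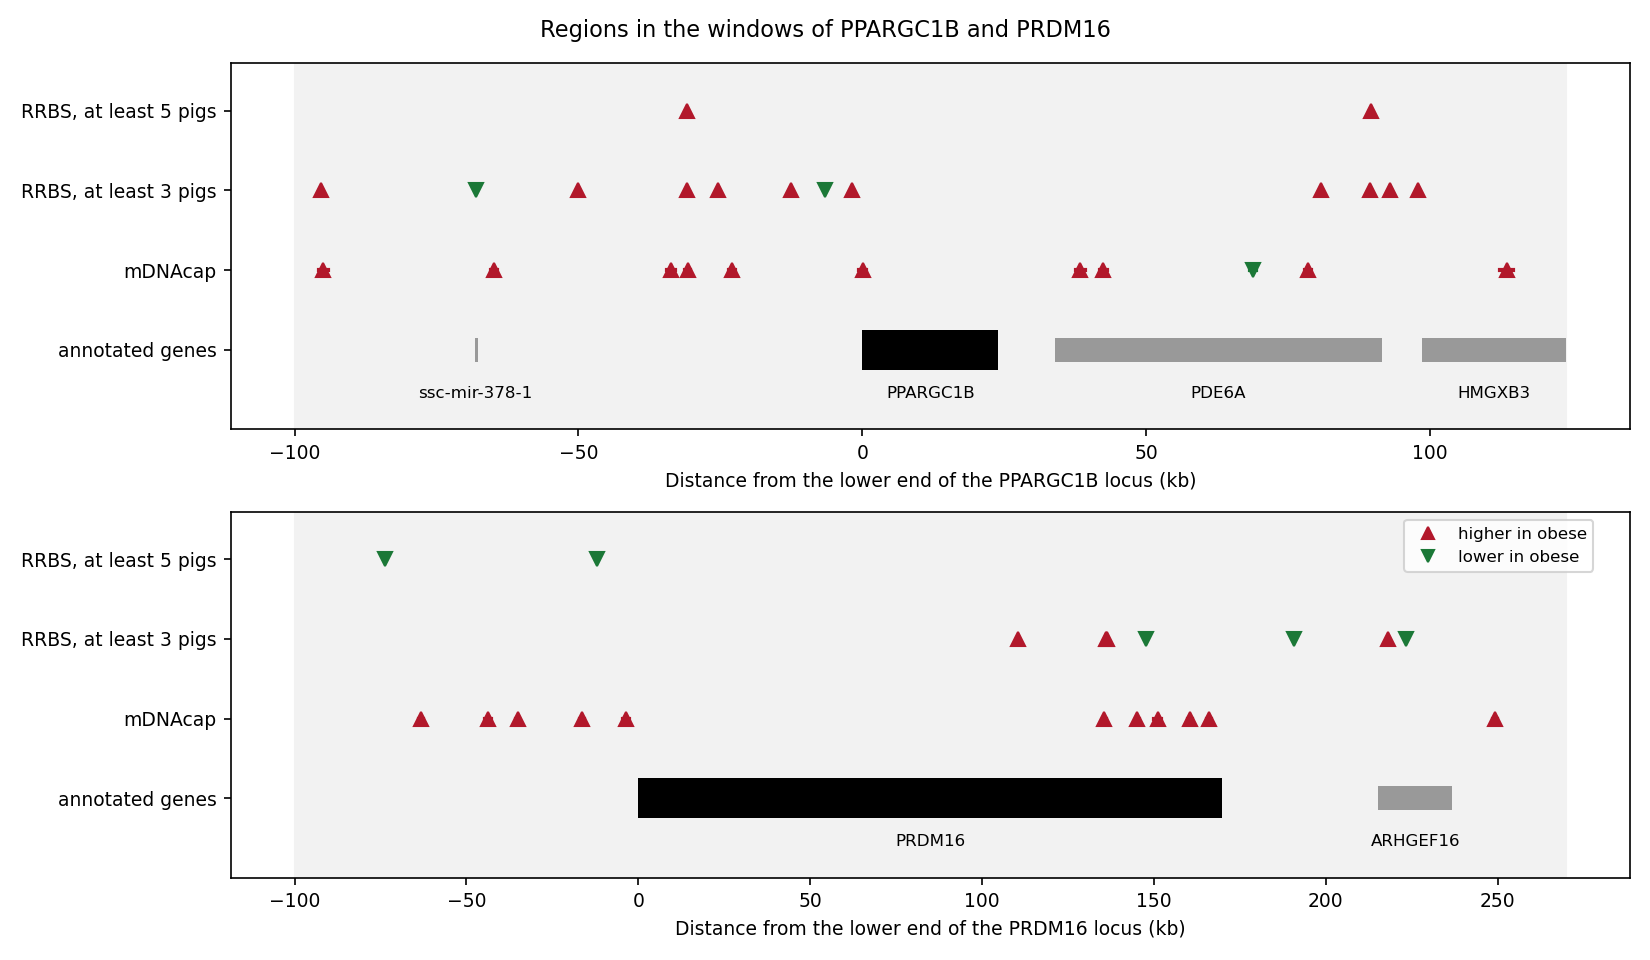
Position of the regions in the windows of PPARGC1B and PRDM16, in kilobases from the lower end of each locus, with mDNAcap and the 2 RRBS tables on separate rows and annotated genes as bars. Upward red marks are regions higher in obese pigs and downward green marks regions lower in them, and the mDNAcap row holds a single downward mark, in PDE6A.

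At PRDM16, on chromosome 6 from 59558203 to 59728165, all 11 regions were higher in obese pigs, by 0.39 to 0.69 on the log2 scale. Of these 5 lay in the locus, 5 below it and 1 above it, and those in the locus lay between 59693301 and 59724800. The region with the highest count, 59708301 to 59710400, had a lowest, median and highest count of 28.6, 41.4 and 52.7 in lean and 39.1, 60.5 and 83.1 in obese pigs, with 7 obese values above every lean value. The difference was 0.54 with an SE of 0.14 (limma, adjusted p = 0.00849). At 59718201 to 59719400 the counts were 10.5, 14.9 and 20.3 in lean and 17.3, 24.5 and 28.7 in obese pigs. There too 7 obese values were above every lean value, and no other region of this window had as many.

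Outside the locus, the region nearest to it was 59553901 to 59555400, 2803 bases below, with medians of 36.0 in lean and 45.8 in obese pigs and the smallest difference of the window, 0.39 with an SE of 0.15 (limma, adjusted p = 0.0162). The region on the upper side, 59807001 to 59808000, 12000 bases from ARHGEF16, had the largest difference, 0.69 with an SE of 0.25, on the lowest counts, with medians of 11.4 in lean and 17.9 in obese pigs. ARHGEF16 was listed at 0 FPKM.

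At the uncoupling proteins the pair of regions lay in C2CD3, a centriole gene at 1.27 FPKM, and went in opposite directions. At 9201701 to 9202800 on chromosome 9, 22402 bases from UCP3, the lowest, median and highest counts were 14.9, 18.2 and 24.8 in lean and 17.3, 26.6 and 49.4 in obese pigs. At 9210101 to 9211100 they were 7.90, 16.9 and 26.4 in lean and 5.81, 10.4 and 19.6 in obese pigs. The differences were 0.43 and -0.61 with SEs of 0.16 and 0.22 (limma, adjusted p = 0.0135 each), and that of the second had an adjusted p of 0.172 with the median of ratios. No region lay in the loci of UCP2 (9147993 to 9155011) or UCP3 (9166711 to 9179299).

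PPARGC1A lies on an unplaced scaffold, and its region, 12701 to 14000, ends 1045 bases below the locus. The lowest, median and highest counts were 6.59, 12.4 and 20.3 in lean and 0, 7.44 and 15.1 in obese pigs, a difference of -1.03 with an SE of 0.36 (limma, adjusted p = 0.0112, and 0.0679 with the median of ratios). EBF2, on chromosome 14 from 10990371 to 11187293, had no mDNAcap region nearer than 163571 bases. At PPARGC1B the outermost region inside the window was at 94076 bases and the next one outside it at 116800 bases, and at PRDM16 they were at 78836 and 106903 bases.

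**Figure D4:**
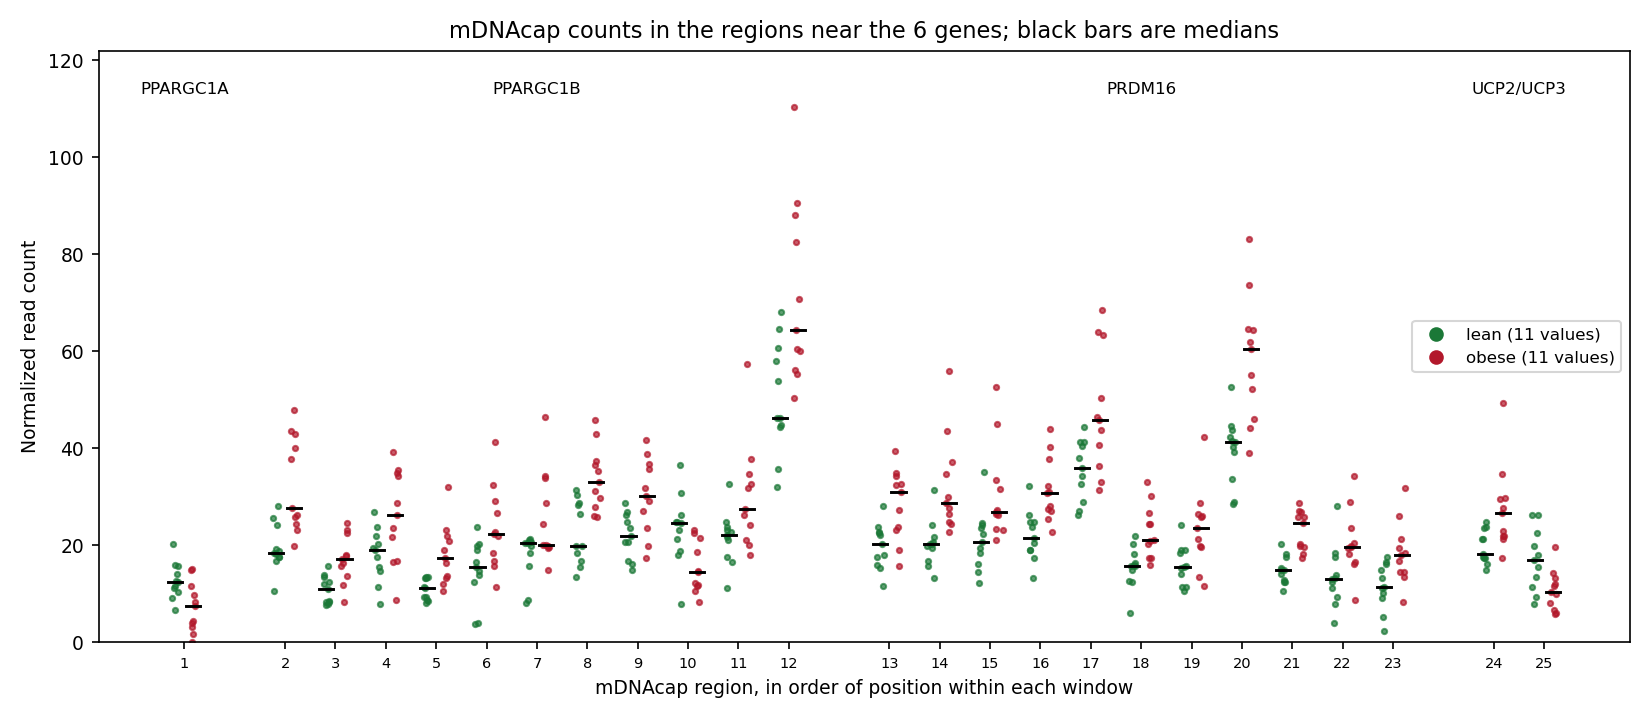
Normalized mDNAcap read count of each animal in the 25 regions, numbered by position within each gene's window, lean in green and obese in red, 11 values each, with black bars for the medians. Regions 1, 10 and 25 are those lower in obese pigs by mean and median alike, and region 7, at the lower end of PPARGC1B, has nearly equal medians.

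RRBS reads methylation at single CpGs after bisulfite conversion, and the tables give the authors' mean of each group over a region, with no value per animal and no depth, so that no error can be stated. Of the 21 regions that rest on at least 3 pigs of each group, 15 were higher in obese pigs, or 71.4% beside 61.1% of all such regions. Of the 4 that rest on at least 5 pigs, 2 were higher, beside 66.1% of all. The difference reached 20 points in 9 of the 21, where 12.0% of all such regions reached it, and the median size was 19.1 points beside 13.8 points over all.

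PPARGC1B held 12 of the 21 regions, 10 of them higher in obese pigs. The largest difference was at 157613138 to 157613355, with a group mean of 60.8% in obese and 32.1% in lean pigs. At 157695950 to 157696120, 12456 bases below the locus, the means were 27.0% in obese and 3.07% in lean pigs. The region nearest to the locus, 157706773 to 157706799, 1777 bases below it, was at 21.8% and 6.80%. Those lower in obese pigs were 157701817 to 157702012, at 8.98% in obese and 28.1% in lean pigs, and 157640526 to 157640576, at 6.87% and 17.7%. The latter lies 94 bases from the hairpin of ssc-mir-378-1, a microRNA gene whose human and mouse counterparts lie inside PPARGC1B. In the tables the hairpin is outside the PPARGC1B locus and listed at 0 FPKM. The listed locus may thus not hold the whole gene, and regions counted as below it may lie in PPARGC1B, which was not tested.

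The 2 regions of the window that rest on at least 5 pigs were found in the table of at least 3 pigs too. The one at 157677485 to 157677756 was at 31.7% in obese and 18.1% in lean pigs, and the 13 CpGs at 157677521 to 157677736 within it were at 49.1% and 21.8% where 3 pigs sufficed. The difference was thus 13.6 points over 10 CpGs by the stricter and 27.4 points over 13 CpGs by the looser requirement. These are different sets of CpGs, so the gap cannot be laid to the number of pigs alone. The other region, from 157797934 in PDE6A, was at 68.3% and 51.0% over 11 CpGs by the stricter requirement. By the looser one it was at 77.7% and 57.7% over 12 CpGs.

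PRDM16 held 7 regions that rest on at least 3 pigs, 4 of them in the locus. Within the locus 59668437 to 59668663 was at 37.8% in obese and 17.8% in lean pigs, 59694532 to 59694619 at 30.9% and 3.42%, and 59694201 to 59694273 at 21.1% and 7.47%. The fourth, 59705665 to 59705999, was lower in obese pigs, at 55.6% and 68.8%. Above the locus 59748867 to 59749095 was at 59.8% and 78.9%, and the 2 in ARHGEF16 went in opposite directions, by 15.8 and -15.7 points. Both regions that rest on at least 5 pigs lay below the locus and were lower in obese pigs, with 76.9% against 87.4% at 59484356 to 59484493 and 27.3% against 43.6% at 59546247 to 59546387. In the window of PRDM16, RRBS thus gave both directions and mDNAcap a single one, and 1 RRBS region overlapped an mDNAcap region.

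UCP3 had 1 region, 9177969 to 9178401 within its locus, at 42.6% in obese and 21.4% in lean pigs over 11 CpGs. It is 22958 bases from UCP2. EBF2 had 1, 11248688 to 11248848, 61395 bases above the locus, at 3.74% in obese and 19.9% in lean pigs over 10 CpGs. Neither lay in a region of the table that requires 5 pigs, and PPARGC1A had none in either table.

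At 3 places a region of the RRBS table of at least 3 pigs overlapped an mDNAcap region, and all 3 were higher in obese pigs by both methods. These were 157613138 to 157613355 and 157677521 to 157677736 at PPARGC1B and 59694201 to 59694273 in PRDM16. Among all regions 64 of 89 such overlaps, or 71.9%, had the same direction. Both methods used DNA of the same pigs, and the tables were not normalized together.

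**Figure D5:**
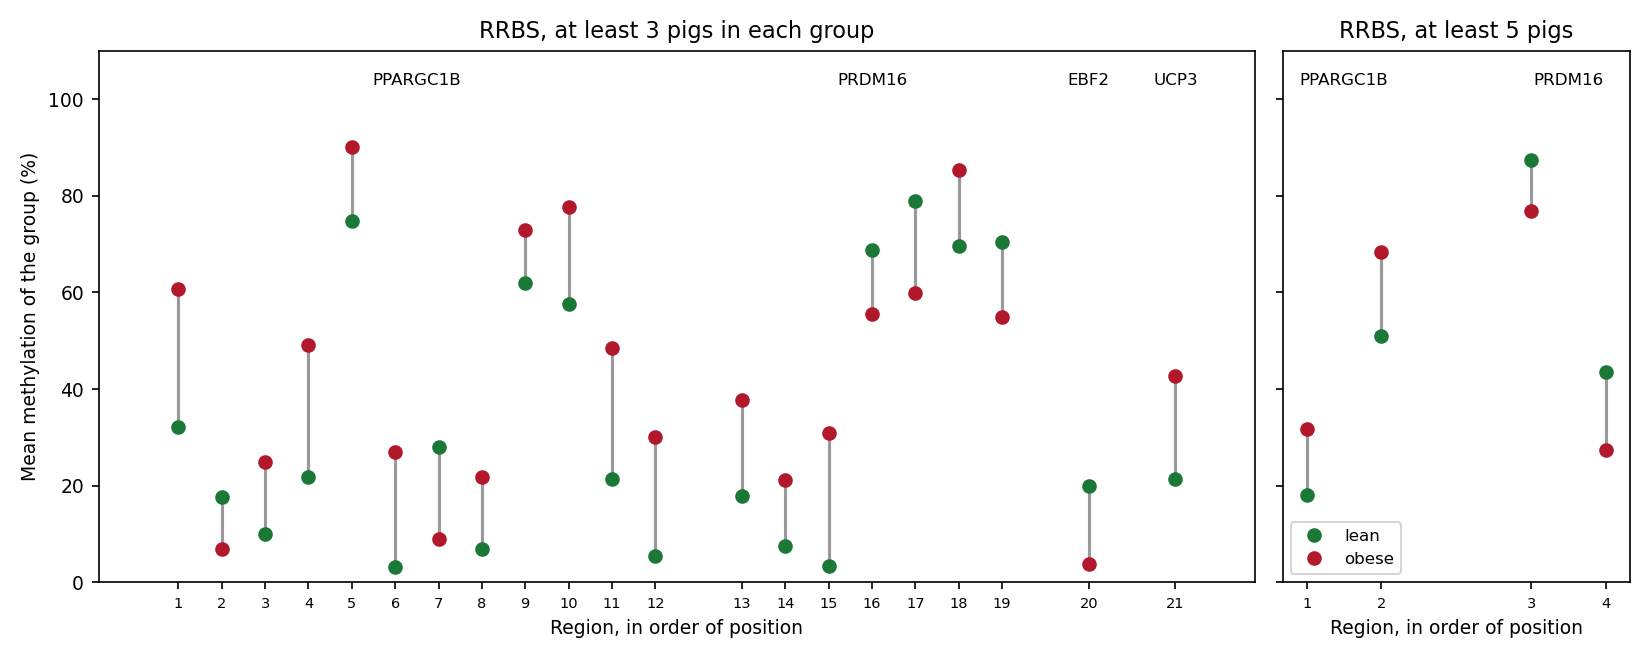
Authors' mean methylation of lean (green) and obese (red) pigs in percent for each RRBS region near the 6 genes, in order of position, for the table that requires at least 3 pigs of each group (left) and at least 5 (right). Lines join the means of a region, the single UCP3 region went from 21.4% in lean to 42.6% in obese pigs, and no error bars are drawn because the tables hold no value per animal.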

How the data were processed

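RNA was sequenced in 5 lean and 5 obese male pigs, and methylated DNA in 11 lean and 12 obese pigs. The authors mapped ribosome-depleted, stranded RNA reads with STAR 2.3.1 to Sscrofa10.2 and deposited FPKM values for each library from cufflinks 2.2.0. The mDNAcap reads were compared by the authors with diffReps (window 1000 bases, step 100 bases, G-test cutoff 0.0001), who deposited for each resulting region the normalized counts per library and their group mean as a signal. For RRBS, mapped with Bismark 0.10, the authors deposited the mean methylation fraction of each group and the count of CpGs per region, which were searched with metilene on CpGs with at least 5 reads. The authors' own fold changes, p-values and q-values were not used, nor was their hotspot table.

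Rows of 1 identifier were summed, and 9 genes with a failed estimate were left out. FPKM values were divided by median-of-ratios size factors, and the libraries of pig-572, the second of which carries another number in its description, were averaged. limma 3.58.1 (eBayes with trend, R 4.3.3) was fitted to log2(FPKM + 1) of the genes whose mean reached 1 FPKM, and p was adjusted by Benjamini-Hochberg and called under 0.05. For each of the 7 entries an exact permutation over 252 splits of the pigs, two-sided, gave a further p, which cannot go below 0.00794. The mDNAcap counts were tested likewise on log2(count + 1) over all regions. Of the read files of the mDNAcap comparison 5 of each group came from one sequencing folder and 6 from another, and the values carry no names to fit it. The fits were tested on simulated data with a common SD and 200 features changed by 2 on the log2 scale, of which 100% were recovered. That change is larger than any at the entries or regions described, so nothing is read from it about differences of their size. Each p-value sets a difference against the spread between pigs. The mDNAcap regions were chosen by the authors on these same animals, so their p-values are a description only.

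The depth of the RNAseq and RRBS libraries was not used here. For RNAseq, fragments were estimated from the bounds that the authors' cufflinks gave, taken as 2 SDs of a count, and intervals and floors cover counting error only. The mean reads per 1000-base bin of the mDNAcap libraries ranged from 0.63 to 7.04 in lean and from 0.44 to 4.1 in obese pigs. Loci are those of the FPKM tables with starts counted from 1, RRBS coordinates are as deposited, and strand is not in the tables.

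The genes and lists were chosen with earlier results of these data known. Named beside the 6 genes were, from each of 8 pathway lists, up to 4 genes with an unadjusted p under 0.05 and the largest difference, the 3 genes most like each tested entry, and genes overlapped by a region. The 8 pathway lists were PGC-1 partners, PRDM16 and EBF2 partners, repressors, brown and beige markers, UCP1-independent cycles, related carriers, adrenergic and cAMP input, and fatty acid oxidation. Some genes that this rule names are not reported here. Python 3.11.15, pandas 2.3.3, numpy 2.4.6, scipy 1.17.1 and matplotlib 3.10.9 were used.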

Additional observations from a re-analysis of the deposited data

How the results depend on the processing

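No paired analysis was possible because the lean and obese groups share no pig number. The differences of EBF2 kept their sign and stayed short of the adjusted threshold under all 18 alternatives, and so did UCP3 except for the sign named above. For the entries under the filter, a pseudocount of 0.1 moved the difference of PPARGC1B to 0.501, that of PRDM16 to 0.023 and that of PPARGC1A to 0.008 on the log2 scale. The count of all genes past the threshold was 1 of 10246, against 0 in limma with FPKM as deposited (1396 genes at an unadjusted p under 0.05), 5 with no filter on low values, 10 with the second library of pig-572 alone and 179 with its libraries as separate replicates. Leaving out 1 pig gave 1 to 165 genes, the latter without lean pig-402. The cause was not tested. Each of the 8 pathway lists had 0 genes past the adjusted limma threshold with FPKM as deposited and with no filter too. The 25 mDNAcap regions became 6 when only overlap with the locus as listed counted, 8 within 10000 bases and 14 with a mean count of at least 20. At 157674201 in the PPARGC1B window the adjusted p was 0.0529 without a trend and 0.0524 with a pseudocount of 0.1. With at least 3 pigs there were 21 RRBS regions instead of the 4 that rest on at least 5. The PRDM16 regions from 59484356 and 59546247 are not among the 21. Of the 4, 0 were left with overlap, with 10000 bases or with a difference of at least 20 points. The low levels of PPARGC1A and PRDM16 limit any comparison of them, RRBS values have no replicate, and mDNAcap values cannot be tied to pigs or sexes.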
